A study of Ascaris suum with 12 samples.

Results

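AgR005_g202 and AgR005_g431 are chondroitin proteoglycan genes of the pig roundworm Ascaris suum, annotated as chondroitin proteoglycan 2 and chondroitin proteoglycan 3. All transcript models of both genes were taken from the deposited expression table by gene name. They came to 6 transcripts of 2 genes, 5 of AgR005_g202 and 1 of AgR005_g431, among 61820 transcripts of 18025 genes. Both genes were most abundant in the pachytene regions of the female germline and, on the RPKM + 1 scale, were at least 9.04-fold higher in every female region than in any male region. They differed in what came next: at diplotene the AgR005_g202 models were 8.82 to 8.89-fold lower than in late pachytene, and AgR005_g431 was 2.03-fold lower.

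Nematode eggs are enclosed in a shell that the fertilised egg builds largely from material made in the oocyte. In Ascaris its layers include a vitelline layer, a chitin layer and an inner lipid layer. Chondroitin proteoglycans are secreted proteins that carry chondroitin sugar chains. In Caenorhabditis elegans the proteins CPG-1 and CPG-2 bind chitin through their chitin-binding domains, are released from cortical granules of the egg after fertilisation and form a shell layer beneath the chitin. Embryos that lack both fail in polar body extrusion and in the first division. The role of the Ascaris proteins was not measured here, and the gene names are those of the deposited annotation.

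The series profiled germline RNA in a worm whose somatic cells lose part of the genome in the early embryo. Adult worms of the strain North American wildtype came from pig intestines and had no treatment. The male germline was dissected into a mitotic region, a region of spermatogenesis, a post-meiotic region, the seminal vesicle and spermatids, and the female germline into a mitotic region, early and late pachytene, diplotene and oocyte. Total RNA was depleted of ribosomal RNA with a kit for human, mouse and rat RNA and sequenced as 1 library per region, and no source used here gives the number of worms per library. The regions of 1 sex are different tissues and not replicates, so the values below have no replicate error, no test was possible, and no p-value is given. A pooled 5'-end sample with 2 libraries is not analysed here. In these bulk samples fewer cells of a type and less RNA per cell cannot be told apart.

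Levels are RPKM, reads per kilobase of transcript scaled to the size of the library. A difference between regions is given as the difference of log2(RPKM + 1), and it was called where it came to 4-fold or more and at least 1 of the regions reached 10 RPKM. Summed RPKM per library ran from 1090760 to 1610770, between 24126 (male seminal vesicle) and 44736 (male mitotic region) transcripts were at 1 RPKM or more, and the 100 highest transcripts held 21.7% to 66.0% of the sum. The seminal vesicle stood apart: its transcript number was the lowest and its share in the 100 highest the largest. Annotated sperm markers (72 genes) summed to 398.3 to 1098.8 RPKM in the female regions and to 86463.8 RPKM in male spermatogenesis, but to 888.7 RPKM in the male seminal vesicle. Muscle markers (54 genes) summed to 1131.8 to 1496.0 RPKM in the female and 111.3 to 2072.2 RPKM in the male regions, cuticle markers (198 genes) to 927.3 to 1314.1 RPKM and 522.0 to 26046.3 RPKM, and intestine and yolk markers (23 genes) to 54.1 to 367.3 RPKM and 51.7 to 466.6 RPKM. The 6 meiotic germ cell markers summed to 10.2 to 31.5 RPKM in the female and 5.1 to 28.9 RPKM in the male regions, with none of them at 0 in any region, so these markers were low in the regions named for meiotic stages. The part of other tissues in the results below was not tested.

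AgR005_g202 lies on the minus strand of scaffold AgR005 between positions 3228568 and 3241305 of the deposited coordinates, and no source used here names their genome build. Its models t01 and t04 are short (3201 and 3193 nt, 11 exons each), both start at position 3237419, are annotated as chondroitin proteoglycan 2 and are marked only as having a capped start without a spliced leader. Models t02, t03 and t05 (7762, 9289 and 7095 nt) begin further upstream, at 3239255 or 3241305. They are annotated as immunosuppressive ovarian message protein and are marked as having both a spliced leader, the short RNA that nematodes join to the 5' ends of many messages, and a capped start. AgR005_g431 lies on the plus strand of the same scaffold at 6710786 to 6714320, with 1 model of 829 nt, 4 exons and both marks. Of all transcripts, 46.4% carried the spliced leader mark, 15.1% the capped start mark and 8.33% both. Both genes are marked as retained, while 6.10% of transcripts in the table are marked as eliminated from somatic cells.

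In the female germline, the model marked as best expressed for AgR005_g202, t04, was at 11169.5 RPKM in the mitotic region, 15189.3 RPKM in early pachytene, 13544.0 RPKM in late pachytene, 1525.5 RPKM in diplotene and 2457.1 RPKM in the oocyte. In the male germline it was at 156.3 RPKM in the mitotic region, 24.2 RPKM in spermatogenesis, 124.0 RPKM in the post-meiotic region, 44.2 RPKM in the seminal vesicle and 51.2 RPKM in spermatids. The 3 early female regions were high, diplotene and the oocyte were intermediate, and the 5 male regions were low, with no overlap between the sexes. Among 18025 genes, each taken by its transcript with the highest maximum, this transcript ranked 2 in the female mitotic region, 3 in early and in late pachytene, 46 in diplotene and 27 in the oocyte. In the male regions its rank lay between 338 (mitotic region) and 2057 (spermatogenesis). If RPKM was scaled to all mapped reads, it took 3.57% of the reads of the female mitotic region, 4.85% in early pachytene, 4.32% in late pachytene, 0.487% in diplotene and 0.785% in the oocyte.

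AgR005_g431 was at 854.4 RPKM in the female mitotic region, 3270.3 RPKM in early pachytene, 2889.0 RPKM in late pachytene, 1425.4 RPKM in diplotene and 1419.8 RPKM in the oocyte. Its male values were 12.5 RPKM in the mitotic region, 2.4 RPKM in spermatogenesis, 12 RPKM in the post-meiotic region, 8.8 RPKM in the seminal vesicle and 8.2 RPKM in spermatids. It was highest in pachytene like AgR005_g202, but its lowest female region was the mitotic one, and diplotene and the oocyte were nearly equal. Its rank among genes was 53 in the female mitotic region, 14 and 15 in early and late pachytene, 48 in diplotene and 35 in the oocyte, and between 2262 and 6570 in the male regions.

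**Figure D1:**
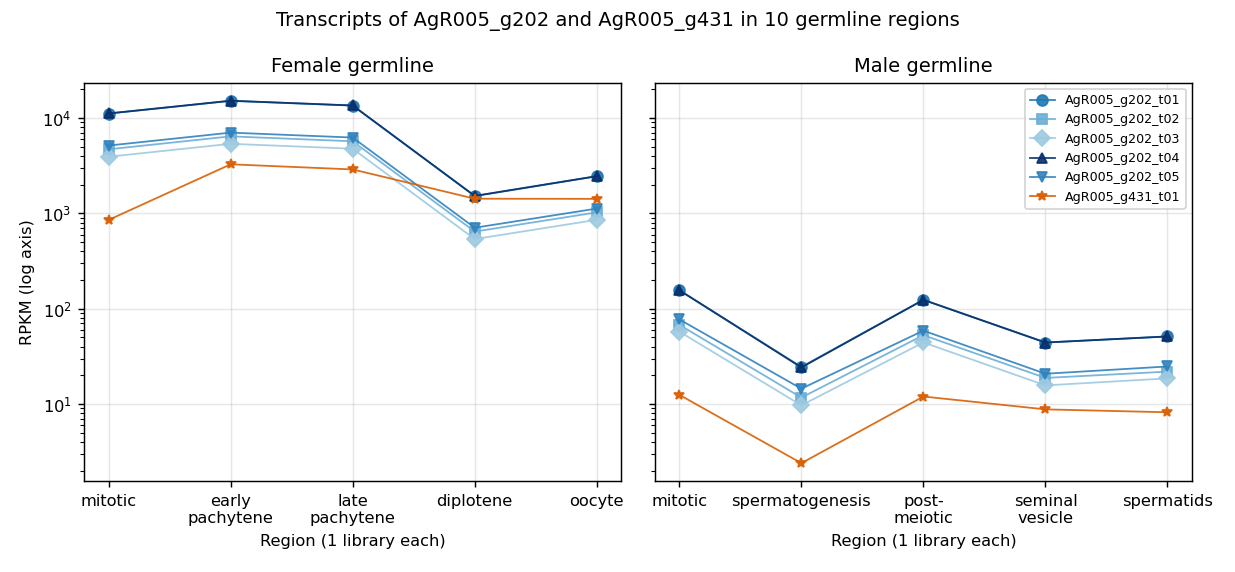
RPKM (log axis) of the 5 AgR005_g202 transcripts and the AgR005_g431 transcript in the 5 female and the 5 male regions, 1 library per point, with lines joining regions of 1 germline. AgR005_g202_t04 drops from 13544.0 to 1525.5 RPKM between late pachytene and diplotene, where AgR005_g431 goes from 2889.0 to 1425.4 RPKM.

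Ordered by level, AgR005_g202_t04 ran from early pachytene through late pachytene, female mitotic region, oocyte, diplotene, male mitotic region, post-meiotic region, spermatids and seminal vesicle to spermatogenesis. AgR005_g431 ran from early pachytene through late pachytene, diplotene, oocyte, female mitotic region, male mitotic region, post-meiotic region, seminal vesicle and spermatids to spermatogenesis. With 1 library per region, neighbours in these orders have no spread to be set against. Early and late pachytene differed by 1.12-fold for AgR005_g202_t04, and diplotene and the oocyte by 1.00-fold for AgR005_g431. Counting error could be set only for diplotene and the oocyte, where values of short transcripts came out as multiples of 1 read and gave depths of 9050000 and 23150000 reads or fragments. There AgR005_g202_t04 rested on 44082 and 181624 reads (95% Poisson error of 0.934% and 0.460%) and AgR005_g431 on 10694 and 27248 reads (1.90% and 1.19%). These errors cover counting only, and the depths of the other 8 libraries were not resolved.

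The 5 models of AgR005_g202 followed 1 course. In early pachytene t01 was at 15148.1 RPKM, t02 at 6423.0, t03 at 5366.6, t04 at 15189.3 and t05 at 7029.0 RPKM, so the short models stood above the long ones per length. Multiplied by length in kilobases, the values of the models lay between 48489 and 49871 in early pachytene and between 35659 and 36500 in the female mitotic region. The highest exceeded the lowest by 1.02 to 1.03-fold in the female regions and by 1.05 to 1.33-fold in the male regions. Undivided by length, the models had nearly the same signal, and their 5 values are not 5 independent measurements.

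The extra length of the long models added few reads. It is not all upstream sequence. Model t02 has 4569 nt more than t04, which exceeds the distance between their starts at 3239255 and 3237419. Model t05 has 3902 nt more than t04, and its RPKM multiplied by length was higher by 1.56% (oocyte) to 2.98% (diplotene) in the female regions. If t05 contains all of t04, the extra length alone was at 214 RPKM in the female mitotic region, 351 RPKM in early pachytene, 264 RPKM in late pachytene, 37.2 RPKM in diplotene and 31.3 RPKM in the oocyte. In the male regions the extra length added 4.57% (seminal vesicle) to 33.1% (spermatogenesis), or 1.65 to 12.7 RPKM over that length. The male mitotic region was the highest of these at 12.7 RPKM, and spermatogenesis, where the share was largest, was at 6.56 RPKM. Models t02, t03 and t05 overlap AgR005_g203, a ubiquitin-protein ligase E3A gene on the opposite strand, by 751, 2801 and 2801 nt. AgR005_g203_t02 was at 1.0 to 11.7 RPKM over the 10 regions. Whether the counting used strand is not stated, so reads of the overlapping genes cannot be told apart.

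**Figure D2:**
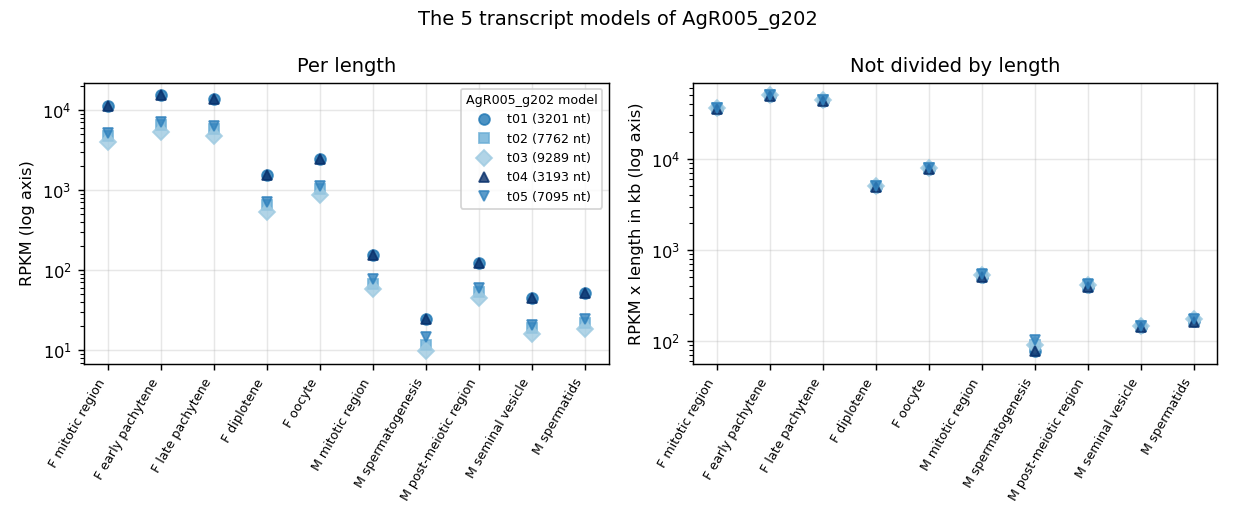
The 5 models of AgR005_g202 in each region (F female, M male; 1 library each), on the left as RPKM and on the right as RPKM multiplied by model length in kilobases, both on log axes. The models separate by length on the left and nearly coincide on the right, where the largest ratio between them is 1.33 in male spermatogenesis.

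The first comparison asked how the germlines of the sexes differ where germ cells still divide by mitosis. All 6 transcripts, 5 of them models of 1 gene, were called higher in the female than in the male mitotic region, against 4.85% of all transcripts. Counted by gene, both were called, against 4.8% of all genes. AgR005_g202_t04 was at 11169.5 against 156.3 RPKM, a log2 difference of 6.15 or 71.0-fold, and AgR005_g431 at 854.4 against 12.5 RPKM, a log2 difference of 5.99 or 63.4-fold. Over all 10 regions, a transcript was called female where the lowest female value was at least 2-fold above the highest male value on RPKM + 1. By this rule all 6 transcripts were called, against 2.37% of all transcripts, and both genes, against 2.61% of all genes. The gap was 9.04 to 9.70-fold for the AgR005_g202 models, between diplotene and the male mitotic region, and 63.4-fold for AgR005_g431, between both mitotic regions. Sperm markers differed in the opposite direction, with 0 of 72 genes called higher and 55 called lower in the female mitotic region.

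The low male levels varied among the male regions. Against the male mitotic region, 5 transcripts were called lower in spermatogenesis, beside 10.3% of all transcripts. AgR005_g202_t04 fell by 2.64 on the log2 scale, while AgR005_g431, with a difference of -1.99, was just short of the threshold and was not called. From spermatogenesis to the post-meiotic region 4 transcripts were called higher, beside 5.86% of all transcripts, with a log2 difference of 2.31 for AgR005_g202_t04. Model t05 (1.95) and AgR005_g431 (1.93) were not called. These calls depended on the scale: when libraries were rescaled by median ratios over 15277 transcripts present in all of them, the differences of AgR005_g202_t04 became -0.71 and 1.33, and 0 transcripts were called at either step. With a pseudocount of 0.1 all 6 were called at both steps. That rescaling moved all transcripts by 1.97 and by -1.01 on the log2 scale at these steps.

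No transcript was called at the remaining male steps. From the post-meiotic region to the seminal vesicle, where 6.57% of all transcripts were called lower, the log2 differences were -1.47 for AgR005_g202_t04 and -0.41 for AgR005_g431. From the seminal vesicle to spermatids, where 2.74% of all transcripts were called higher, they were 0.21 and -0.09. Between the first and the last male region, where 14.4% of all transcripts were called lower in spermatids, they were -1.59 and -0.55. The signs of 0.21, of -0.41 and of -0.55 turned on rescaling, to -0.04, 0.08 and 0.57. These steps share regions with each other and are not independent.

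As a share of the early pachytene level, AgR005_g202_t04 was at 1.03% in the male mitotic region, 0.159% in spermatogenesis, 0.816% in the post-meiotic region, 0.291% in the seminal vesicle and 0.337% in spermatids. AgR005_g431 was at 0.382%, 0.0734%, 0.367%, 0.269% and 0.251% in the same order. The 12 chondroitin proteoglycan genes at 100 RPKM or more in late pachytene had shares of 0.223% (AgR007_g256) to 0.531% (AgR041_g006) in the seminal vesicle. Next in abundance to AgR005_g202, AgR006_g125 and AgR005_g430 were at 0.271% and 0.285% there. In the male mitotic region the shares of the 12 genes ran from 0.382% (AgR005_g431) to 3.68% (AgR003_g075). These 12 genes were chosen by a female level and the share divides by one, so the choice itself favours low male shares. Of the genes it leaves out, AgR031_g108 and AgR031_g109 were at 36.2% and 33.7% in the seminal vesicle. AgR007_g026 and AgB02_g343, also left out, were at 0.353% and 0.151% there. Whether the low male values are male transcription or carry-over of female reads was not tested.

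The step from the female mitotic region into pachytene separated the genes without a call. For early pachytene against the female mitotic region 0 of the 6 transcripts were called higher, against 0.238% of all transcripts. The log2 difference was 0.44 (1.36-fold) for AgR005_g202_t04 and 0.44 to 0.45 for all its models, and 1.94 (3.82-fold) for AgR005_g431, just under the threshold. Rescaling moved all transcripts by 0.44 at this step and AgR005_g431 to 2.38, past the threshold, and equal totals without the 100 highest transcripts moved it to 2.02. Late pachytene against early pachytene gave 0 calls, against 0.0631% of all transcripts called lower, with differences of -0.17 for AgR005_g202_t04 and -0.18 for AgR005_g431.

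At the step from late pachytene to diplotene, the 5 models of AgR005_g202 were called lower and AgR005_g431 was not, against 6.12% of all transcripts called lower. At a 2-fold threshold all 6 were called lower, so the genes differ there in the size of the difference. AgR005_g202_t04 fell by 3.15 on the log2 scale (8.87-fold), and AgR005_g431 had a difference of -1.02 (2.03-fold). Rescaling moved all transcripts by 0.78 at this step. The differences then were -2.37 for AgR005_g202_t04, still called, and -0.24 for AgR005_g431. From diplotene to the oocyte 0 transcripts were called higher, against 0.924% of all transcripts. AgR005_g202_t04 had a difference of 0.69 (1.61-fold) and AgR005_g431 one of -0.01.

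Between both ends of the female germline, oocyte against mitotic region, the 5 AgR005_g202 models were called lower, beside 14.3% of all transcripts. The log2 difference was -2.18 for AgR005_g202_t04 and 0.73 for AgR005_g431. Rescaling moved all transcripts by 1.47 here, which took AgR005_g202_t04 to -0.71 and AgR005_g431 to 2.20. After it AgR005_g431 was called higher and 0 models of AgR005_g202 were called lower. The opposite signs of both genes at this comparison were kept, while the calls were not.

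The balance between the genes changed along the female germline. Per length, AgR005_g202_t04 was 13.1 times AgR005_g431 in the female mitotic region, 4.64 times in early pachytene, 4.69 times in late pachytene, 1.07 times in diplotene and 1.73 times in the oocyte. In the male regions the ratio was 12.5 in the mitotic region, 10.1 in spermatogenesis, 10.3 in the post-meiotic region, 5.02 in the seminal vesicle and 6.24 in spermatids. Such a ratio within a library does not depend on how the libraries are scaled. The female mitotic region and the male mitotic region were alike in it, and the pachytene regions were close to the seminal vesicle.

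**Figure D3:**
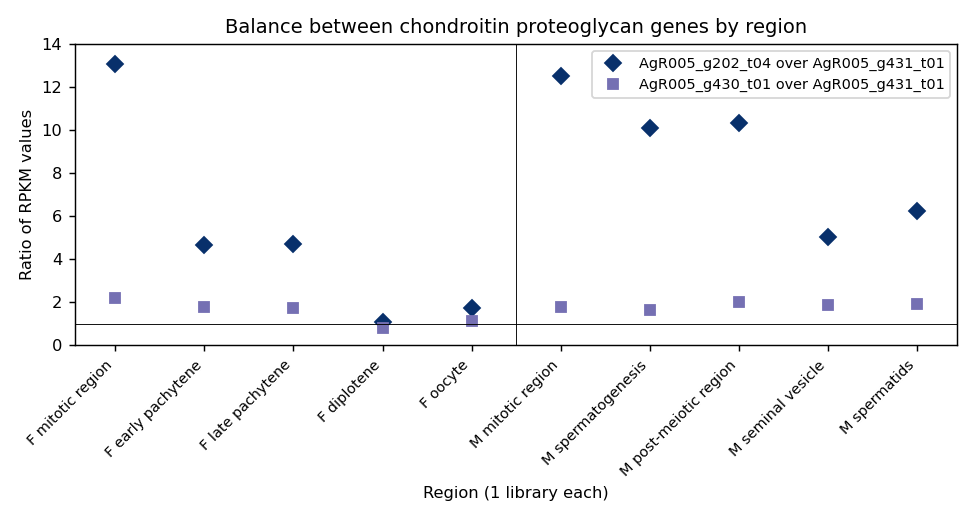
Ratio of RPKM values within each library (linear axis, horizontal line at 1), 1 library per region, F female and M male. AgR005_g202_t04 over AgR005_g431_t01 goes from 13.1 in the female mitotic region to 1.07 in diplotene, and AgR005_g430_t01 over AgR005_g431_t01 lies between 0.793 and 2.20.

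Another chondroitin proteoglycan gene lies beside AgR005_g431. AgR005_g430, annotated as chondroitin proteoglycan 3, is on the opposite strand at 6706146 to 6708762, 2023 nt from AgR005_g431, and its transcript t01 has 744 nt and 4 exons. Its female values were 1880.1 RPKM in the mitotic region, 5851.4 RPKM in early pachytene, 4987.3 RPKM in late pachytene, 1131.0 RPKM in diplotene and 1587.3 RPKM in the oocyte, and its male values lay between 4.0 and 24.0 RPKM. It was above AgR005_g431 in 9 of the 10 regions, by 1.12 to 2.20-fold, and below it in diplotene, at a ratio of 0.793. Whether these neighbours share reads was not tested, and how reads with several matches were counted is not stated.

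Other neighbours were far lower. AgR005_g431 overlaps AgR005_g432_t01, a zinc metalloproteinase nas-5 gene on the opposite strand, by 290 nt. AgR005_g432_t01 was at 38.7 RPKM in the female mitotic region, 183.6 RPKM in early pachytene, 173.8 RPKM in late pachytene, 89.0 RPKM in diplotene and 53.2 RPKM in the oocyte, and at 0.5 to 4.4 RPKM in the male regions. It was highest in the same region as AgR005_g431 and overlaps it, so reads of these genes too cannot be told apart without strand. The next genes beyond, AgR005_g433 (another nas-5 gene), AgR005_g434 (a cyclic nucleotide-gated channel), AgR005_g429 and AgR005_g428 (integrin alpha ina-1), were at no more than 20.8 RPKM in any region. Around AgR005_g202, AgR005_g199 (a serine/threonine kinase NLK) reached 46.0 RPKM in the male mitotic region, and AgR005_g200, AgR005_g201, AgR005_g204 and AgR005_g205 stayed at 9.0 RPKM or lower.

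The table holds 17 other genes with a chondroitin proteoglycan annotation on at least 1 transcript, 60 transcripts in all, and each was followed by its transcript with the highest maximum. Of the 17 genes, 15 reached 10 RPKM in some region. In all 13 were highest in a female region, 10 of them in early or late pachytene and 2 in the female mitotic region, and 4 were highest in a male region. These counts by highest region have no share over all genes beside them and are a description only. Against the male mitotic region, 11 of the 17 genes were called higher in the female mitotic region and 0 lower, beside 4.8% of all genes called higher and 7.33% called lower. Over the 10 regions 9 of the 17 were called female, beside 2.61% of all genes. At early pachytene 1 was called higher and 0 lower, beside 0.316% of all genes called higher. At diplotene 10 were called lower and 0 higher, beside 5.6% of all genes called lower and 2.44% called higher.

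The most abundant of the other genes was AgR006_g125, annotated as immunosuppressive ovarian message protein like the long models of AgR005_g202. Its transcript t01 (2118 nt) was at 5081.8 RPKM in the female mitotic region, 11089.0 RPKM in early pachytene, 10450.9 RPKM in late pachytene, 1176.7 RPKM in diplotene and 853.7 RPKM in the oocyte, and at 8.5 to 73.1 RPKM in the male regions. AgR031_g110_t02 (chondroitin proteoglycan 3) reached 3541.0 RPKM, AgR045_g026_t04 (chondroitin proteoglycan 2) 1899.1 RPKM and AgR041_g006_t02 (chondroitin proteoglycan 3) 1168.5 RPKM, all in early pachytene. AgR005_g202_t04 was the most abundant chondroitin proteoglycan in each female region.

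Not every gene with the name followed the female course. AgR031_g108_t01, annotated as chondroitin proteoglycan 2, was at 1138.3 RPKM in the male post-meiotic region and at 4.8 to 37.5 RPKM in the female regions. AgR031_g109_t01 lies inside the span of AgR031_g108 and was also highest there, at 400.2 RPKM, so the pair may not be independent. AgR001_g155_t01 was listed at 0 in all 5 female regions and reached 14.1 RPKM in spermatogenesis, and AgB02_g535_t01 reached 6.9 RPKM there. AgR007_g026_t03 was the only one highest in the oocyte, at 67.0 RPKM, and the gene called higher at early pachytene (4.3 against 28.3 RPKM). AgB02_g343_t03, annotated as chondroitin proteoglycan 4, peaked at 66.2 RPKM in early pachytene, and AgR001_g101_t01, of the same annotation, did not exceed 9.8 RPKM.

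**Figure D4:**
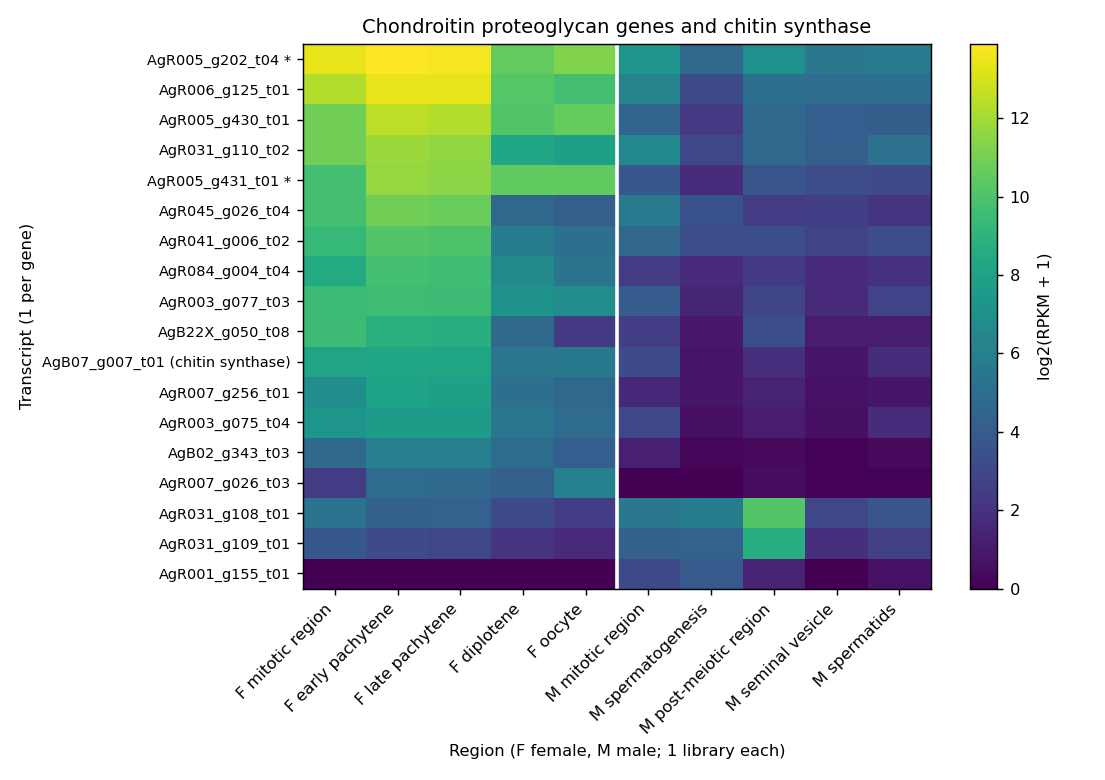
Log2(RPKM + 1) of chondroitin proteoglycan genes that reached 10 RPKM and of chitin synthase AgB07_g007, 1 transcript per gene in order of early pachytene level, in the 5 female and 5 male regions (1 library each); asterisks mark AgR005_g202 and AgR005_g431. AgR031_g108 and AgR031_g109 are highest in the male post-meiotic region, at 1138.3 and 400.2 RPKM.

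Among the abundant chondroitin proteoglycan genes, AgR005_g431 was at 1 end and AgR005_g202 in the middle at the step out of pachytene. Of the 12 genes at 100 RPKM or more in late pachytene, AgR005_g431 had the highest share of that level in diplotene, 49.3%. AgR005_g430 followed with 22.7%, then AgR003_g075 with 22.4% and AgR003_g077 with 18.2%, 2 genes that lie across each other on opposite strands. AgR007_g256 had 14.5%, AgR084_g004 12.4%, AgR005_g202 11.3% as the seventh in order, and AgR006_g125 also 11.3%. The lowest shares were 9.71% for AgR031_g110, 6.04% for AgB22X_g050, 5.52% for AgR041_g006 and 1.47% for AgR045_g026. AgR005_g431 also led the same 12 genes at the step into early pachytene with 3.82-fold, ahead of AgR005_g430 with 3.11-fold. AgR005_g202 was the ninth there with 1.36-fold, and AgB22X_g050 was 1.63-fold lower in early pachytene. Outside these 12 genes, AgR007_g026, at 25.4 RPKM in late pachytene, was past AgR005_g431 at both steps. It had 71.3% of that level in diplotene and was 5.53-fold higher in early pachytene than in the mitotic region. The order of genes within a step is the same under any scaling of whole libraries, apart from the pseudocount.

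**Figure D5:**
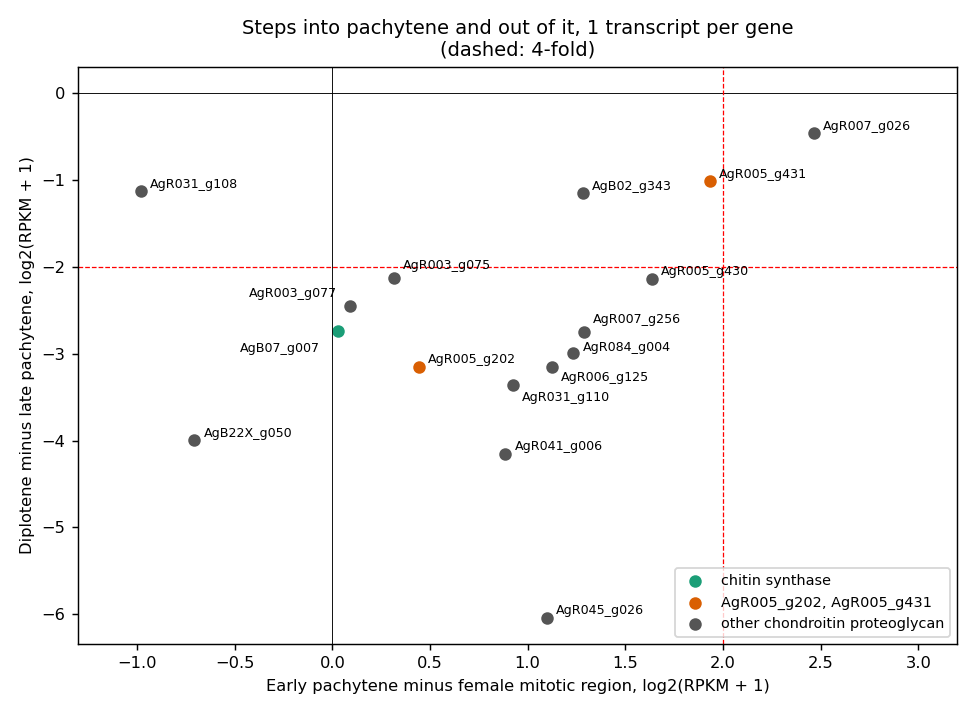
Difference of log2(RPKM + 1) of early pachytene minus female mitotic region (horizontal) and of diplotene minus late pachytene (vertical) for chondroitin proteoglycan genes at 10 RPKM or more in late pachytene and chitin synthase AgB07_g007, 1 transcript per gene, with dashed lines at 4-fold. AgR005_g431 lies at 1.94 and -1.02 and AgR005_g202 at 0.44 and -3.15.

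Chitin is the polymer that the shell proteoglycans of C. elegans bind, and its synthesis starts from fructose 6-phosphate and ends with chitin synthase. Of 8 genes of chitin synthesis, 4 were called higher in the female than in the male mitotic region and 0 lower, beside 4.8% and 7.33% of all genes, with a median log2 difference of 2.06 beside 0 over all 18025 genes. Those named by level were all among the 4 called. Chitin synthase AgB07_g007_t01 was at 279.4 RPKM in the female mitotic region, 285.0 RPKM in early pachytene, 299.7 RPKM in late pachytene, 44.1 RPKM in diplotene and 47.8 RPKM in the oocyte, and at 0.7 to 8.3 RPKM in the male regions. It is marked as eliminated from somatic cells, and was the only gene of the list called lower at diplotene, with a log2 difference of -2.74. With rescaled libraries 0 genes of the list were called lower there. AgR001_g087_t02 and AgR001_g088_t02, also annotated as chitin synthase, were at no more than 2.7 RPKM in any region.

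Of the 5 genes for enzymes that act before chitin synthase, 3 were called higher in the female mitotic region, beside 4.8% of all genes. These 3 are among the 4 counted above. Glucosamine-fructose-6-phosphate aminotransferase, the first enzyme (AgR002_g340_t03), was at 41.3 RPKM in the male and 259.4 RPKM in the female mitotic region. Phosphoacetylglucosamine mutase (AgR001_g283_t03) was at 17.7 and 97.1 RPKM, and UDP-N-acetylglucosamine pyrophosphorylase (AgR009X_g239_t02), which makes the substrate of chitin synthase, at 35.3 and 264.3 RPKM. From late pachytene to diplotene these went from 283.7 to 105.3, from 79.8 to 19.3 and from 321.5 to 106.2 RPKM, none of them called. Glucosamine 6-phosphate N-acetyltransferase (AgB08X_g162_t02) at 18.6 and 61.0 RPKM and a second mutase gene (AgR016_g080_t01) at 12.2 and 42.5 RPKM in the male and female mitotic regions were under 4-fold and not called. None of 11 chitinases could be called between the mitotic regions, because all were under 10 RPKM in both. The highest was AgR054_g009_t04, at 9.6 RPKM in the male and 8.5 RPKM in the female one. Chitinases degrade chitin, and 1 of the 11, the chitotriosidase AgR025_g093_t06, was called higher at diplotene (1.8 against 21.7 RPKM), beside 2.44% of all genes.

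Genes matched by annotation words for enzymes of chondroitin and heparan chains showed smaller differences. The match is broad. It takes in AgB07_g259, annotated as a glycoprotein-N-acetylgalactosamine galactosyltransferase, and AgB24_g012, whose highest transcript is annotated as an RNA methyltransferase. Of the 35 genes matched, 2 were called higher and 1 lower in the female mitotic region, beside 4.8% and 7.33% of all genes. The median log2 difference was 0.55. At diplotene 2 were called higher and 5 lower, beside 2.44% and 5.6% of all genes, with a median of -0.78 beside -0.14 over all genes. The counts between the mitotic regions were thus small and not far from those of all genes. Chondroitin sulfate synthase 1, which lengthens the chondroitin chain (AgR011_g319_t02), was at 12 RPKM in the male and 101.2 RPKM in the female mitotic region, and fell from 86.5 RPKM in late pachytene to 15.5 RPKM in diplotene. Chondroitin sulfate synthase 2 (AgR025_g118_t08) went from 39.7 to 7.7 RPKM at diplotene and exostosin-2 (AgR039_g102_t04), a heparan chain enzyme, from 54.4 to 9.8 RPKM, both called. UDP-glucose 6-dehydrogenase (AgR009X_g056_t01), which makes the glucuronate donor, was at 26.7 and 8.5 RPKM and was not called. With rescaled libraries 0 of the 35 genes were called lower at diplotene.

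The list of chitin-binding proteins and chondroitin proteoglycans held 23 genes, the 17 described above and 6 more. Between the mitotic regions 11 of the 23 were called higher and 1 lower, beside 4.8% and 7.33% of all genes, and the 11 are those counted above. The 10 called lower at diplotene (6 with rescaled libraries) were also those counted above, so the 6 further genes added 0 calls there. In the oocyte against diplotene 1 was called lower, AgB22X_g050 of the 17, beside 0.982% of all genes.

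A further list matched annotation words for the oocyte or the egg surface, among them zonadhesin, LDL receptor, ovarian abundant message and vitellogenin. It also takes in AgR037_g072 and AgR037_g073, whose highest transcripts are annotated as heat shock protein beta-1 and hypothetical protein. Of its 40 genes, 19 were called higher and 1 lower in the female mitotic region, beside 4.8% and 7.33% of all genes. At diplotene 2 were called higher and 12 lower, beside 2.44% and 5.6%, and in the oocyte 2 were called higher, beside 1.21% of all genes. Ovarian abundant message AgB01_g322_t03 was the highest of them, at 262.7 RPKM in the male and 15108.9 RPKM in the female mitotic region, 30258.6 RPKM in early pachytene and 491.8 RPKM in diplotene. The last list matched annotation words for RNA regulators of the oocyte, such as gld-1, which in C. elegans represses translation of oocyte messages. It also takes in AgB21_g001 and AgR038_g083, whose highest transcripts are annotated as kelch-like protein 10 and serine beta-lactamase-like protein. Its highest gene, the gld-1 gene AgR001_g389_t03, was at 407.6 RPKM in male spermatogenesis and at 0.1 to 0.4 RPKM in the female regions. Of the 33 genes, 1 was called higher and 6 lower in the female mitotic region, beside 4.8% and 7.33% of all genes, with a median of -0.28. At diplotene 11 of the 33 were called lower, beside 5.6% of all genes (7 with rescaled libraries).

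The genes whose levels ran most like those of the chondroitin proteoglycans were sought by Pearson's r of log2(RPKM + 1) across the 10 regions, among 1598 genes that reached 100 RPKM. These correlations are descriptions over 10 single libraries that share the contrast between the sexes. For AgR005_g202_t04 the closest were the chondroitin proteoglycan AgR003_g077 (0.994), chitin synthase AgB07_g007 (0.992), the kinesin-2 gene AgB02_g486 (0.992), AgR006_g125 (0.991) and a second kinesin-2 gene, AgR002_g311 (0.99). A flavin monooxygenase-type gene (AgR022_g145, 0.989), an acetyl-CoA acetyltransferase (AgB10_g116, 0.987), a major facilitator protein (AgR030_g088, 0.986), an ino80 helicase (AgR013X_g066, 0.985) and a sortilin-related receptor (AgR009X_g182, 0.985) completed the 10. AgR003_g077_t03 was at 712.5 RPKM in the female mitotic region, 758.1 RPKM in early pachytene, 741.7 RPKM in late pachytene, 135.1 RPKM in diplotene and 112.3 RPKM in the oocyte, and at 1.7 to 15.6 RPKM in the male regions.

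For AgR005_g431 the closest was its neighbour AgR005_g430 (0.995). It was followed by AgB01_g501 (0.991) and AgB01_g502 (0.987), hypothetical proteins that lie across each other, the egl-26-like gene AgB02_g261 (0.991) and the hypothetical proteins AgR011_g099 and AgR009X_g158 (both 0.988). The metalloproteinase inhibitor AgB07_g291 (0.987), the ankyrin repeat gene AgR015_g174 (0.987), AgR017_g110 (0.986) and the tyrosine phosphatase AgB12_g015 (0.985) followed. AgR015_g174_t02 was the most abundant of these after AgR005_g430, at 2376.4 RPKM in early pachytene and 1004.3 RPKM in diplotene. No gene was in both lists of 10, and the genes had an r of 0.962 with each other, at which AgR005_g431 was the 48th gene for AgR005_g202 and AgR005_g202 the 27th for AgR005_g431. By Spearman's rho 3 of the 10 genes for AgR005_g202 and 4 of the 10 for AgR005_g431 stayed among the first 10.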

How the data were processed

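The authors deposited 1 table of values normalized to transcript length and library size, taken here as RPKM, with 1 library per germline region. The header does not name the unit, column sums differ between libraries, and nothing says whether reads or fragments were counted. RNA was extracted with Trizol and libraries were made with a TotalScript kit after ribosomal depletion, per the labels' protocols. TopHat2 and Cufflinks are named, without versions, in the submitters' processing notes. No source used here gives the genome build, the annotation or the use of strand. Names, coordinates and marks are those of the table, and 15 further columns were empty.

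Differences used log2(RPKM + 1) with a 4-fold threshold and a minimum of 10 RPKM in the higher region. With 1 library per region no test was possible, and calls over all transcripts give the background. Gene counts used the transcript with the highest maximum. Gene lists match annotation words, leaving out UDP-glucuronosyltransferases from chain synthesis and egg-laying genes from the oocyte list. The genes and the lists were chosen with earlier results of these data known. Named genes were both genes' transcripts, other chondroitin proteoglycans, the 10 genes most like each, 3 neighbours on each side and up to 4 of the highest per list. Alternatives were a pseudocount of 0.1, no minimum, a 2-fold threshold, rescaling by median ratios, equal totals without the 100 highest transcripts, sums per gene, Spearman's rho and leaving out each region. The product of RPKM and length was added after the data were seen, as was a set of abundant genes called female, which is not reported because its choice fixes a low male share. Depth was sought from transcripts under 250 nt. The calling rules were tested on simulated data. Work was done in Python 3.11.15 with pandas 2.3.3, numpy 2.4.6 and matplotlib 3.10.9.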

Additional observations from a re-analysis of the deposited data

How the results depend on the processing

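The calls of all 6 transcripts between the mitotic regions and over the 10 regions, and of the 5 AgR005_g202 models at diplotene, were kept under every alternative that was run for them. With a 2-fold threshold, 1 transcript was called higher at early pachytene (0 at 4-fold), 5 lower in the seminal vesicle against the post-meiotic region (0) and 5 lower in spermatids against the male mitotic region (0). That threshold also added AgR005_g431 at diplotene, with 6 called lower (5), and gave 6 lower in spermatogenesis (5) and 6 higher in the post-meiotic region (4). A pseudocount of 0.1 gave the same 6 and 6 at these male steps and left diplotene at 5. With libraries rescaled by median ratios, 1 was called higher at early pachytene, 1 higher (0) and 0 lower (5) in the oocyte against the female mitotic region, 0 lower in spermatogenesis (5) and 0 higher in the post-meiotic region (4). With equal totals without the 100 highest transcripts, 1 was called higher at early pachytene and 0 lower in the oocyte against the female mitotic region. The cause was not tested. Of the 10 genes most like AgR005_g202, 3 stayed by Spearman's rho, and leaving out 1 region kept between 6 (without the seminal vesicle or the oocyte) and 10. Of the 10 most like AgR005_g431, 4 stayed by Spearman's rho, 3 with values summed per gene, and between 6 (without spermatogenesis) and 10 when 1 region was left out. No paired analysis was possible because each region is 1 library and no test was made. Depth was resolved for 2 of the 10 libraries.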
